A study of Mus musculus with 24 samples.

Results

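The genes described here are 10 textbook target genes of the transcription factor p53 in tissues of Thumpd1 knockout (KO) mice: Cdkn1a, Mdm2, Ccng1, Bax, Bbc3, Phlda3, Eda2r, Zmat3, Sesn1 and Trp53inp1. The rule that picks them is a list of names proposed with earlier results of these data known, and they were found by matching the gene symbol in the expression table, where all 10 were present among 55450 annotated genes. Thumpd1 encodes a tRNA-binding adaptor protein that is required for acetylation of cytidine in tRNAs for leucine and serine. Total RNA, after removal of ribosomal RNA, was sequenced from cerebellum, liver and testes, with 4 wild-type (WT) libraries numbered 1 to 4 and 4 Thumpd1-/- libraries numbered 5 to 8 in each tissue. The KO allele was made in C57BL/6N fertilized eggs with Cas9 and a pair of guide RNAs directed to exon 1 and exon 4 of Thumpd1. The WT animals were age-matched littermates. The study used mice of either sex, 6 to 12 weeks of age, and testes come from males only. Sex was not a term in any comparison here. Neither the founder line behind a KO library nor whether the tissues came from the same animals is given in the sources used here, so p-values measure the spread between these libraries.

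p53 is kept low in unstressed cells because one of its own targets, Mdm2, marks it for degradation, and damage or stress signals break this loop so that p53 accumulates and activates its targets. The targets stop the cell cycle (Cdkn1a, which encodes the cyclin-dependent kinase inhibitor p21), feed back on p53 (Mdm2 and Ccng1), promote cell death (Bax, Bbc3, Phlda3 and Eda2r) or act on RNA and metabolism (Zmat3, Sesn1 and Trp53inp1). In cerebellum and liver most cells of the adult do not divide, whereas testes hold dividing and meiotic germ cells in which the DNA damage machinery is active.

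The 24 libraries held 16353797 to 37889615 expected counts in genes, with levels given here as counts per 1000000 counts of the library (CPM), and abundant noncoding RNAs took 4.56 to 31.0% of a library. The targeted gene followed the labels. Thumpd1 stood at 21.8 to 24 CPM in WT cerebellum against 0 to 0.113 CPM (0 to 2 counts) in the KO. In liver it stood at 9.19 to 10.1 CPM in WT against 0 to 0.106 CPM (0 to 4 counts) in the KO. In testes it stood at 24.3 to 26.3 CPM in WT against 0.768 to 1.14 CPM (23 to 41 counts) in the KO. Cerebellum libraries with neighbouring numbers resembled each other: the chi-square per gene between the counts of 2 libraries was 3.04 to 5.12 within the pairs 1 and 2, 3 and 4, 5 and 6, and 7 and 8, and 5.24 to 11.3 between other libraries of a genotype. The corresponding ranges overlapped for liver (8.46 to 313 and 64.2 to 228) and testes (2.23 to 13.7 and 5.77 to 28.3). The same pairs differed in choroid plexus markers, whose summed level was 1060 and 1090 CPM in WT 1 and 2, 18.1 and 17.1 in WT 3 and 4, 21.6 and 22.5 in KO 5 and 6, and 366 in both KO 7 and 8. The labels do not say what neighbouring numbers share, so calls are also given with neighbouring libraries summed to 2 WT and 2 KO sums per tissue.

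Promoter windows show which members carry letters of the p53 response element close to a start site. RefSeq windows of the assembly GRCm38.p6, reaching from 250 bases before to 50 bases after a start, were found for 8 of the 10 genes, and none was found for Zmat3 and Trp53inp1. The p53 half-site, the 10-letter unit whose consensus is its own reverse complement, occurred in 5 of the 12 member windows (41.7%) and in 8.36% of all 32851 windows, or in 5 of these 8 genes and in 9.55% of all 27025 genes. Each stretch below is written 5′ to 3′ on the strand of its gene, with half-sites in capitals and the surrounding bases in lower case, because these are the only members with such a match. They lie at chr17:29090886-29090967 on the plus strand (Cdkn1a), chr10:117710915-117710964 on the minus strand (Mdm2), chr11:40755442-40755491 on the minus strand (Ccng1), chr7:45467070-45467119 on the minus strand (Bax) and chr10:41887246-41887295 on the plus strand (Sesn1).
Cdkn1a: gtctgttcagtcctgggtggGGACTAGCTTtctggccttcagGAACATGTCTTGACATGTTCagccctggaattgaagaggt
Mdm2: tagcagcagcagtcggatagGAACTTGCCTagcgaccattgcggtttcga
Ccng1: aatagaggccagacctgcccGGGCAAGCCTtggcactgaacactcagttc
Bax: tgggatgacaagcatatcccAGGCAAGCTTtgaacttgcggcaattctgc
Sesn1: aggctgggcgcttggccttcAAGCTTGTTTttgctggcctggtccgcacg
The long run of capitals in the Cdkn1a window is a full element, meaning 2 adjoining half-sites with no spacer and at most 1 mismatch outside the central letters, and it lies 51 to 32 bases before the start. A full element of this kind stood in 18 of the 32851 windows (0.0548%), and no other member's window held one. The single half-sites lie 186 to 177 bases before the start of Mdm2, 185 to 176 before Ccng1, 201 to 192 before Bax and 173 to 164 before a start of Sesn1. That Sesn1 start is at 41887439, and the Sesn1 window at the start 41810574 held no half-site. Cdkn1a also has a further window, at the start 29093769, without a half-site. The windows of Phlda3, Bbc3 and Eda2r held no half-site. These matches describe letters in a window, and binding was not measured.

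One comparison of KO with WT per tissue asked whether the p53 targets changed with loss of Thumpd1. Of the 10 members, 9 passed the filter on low values in every tissue, and Eda2r passed in none. In cerebellum no member passed an adjusted p of 0.05 in limma-voom, where 6.44% of the 16225 genes tested did (3.93% higher and 2.51% lower). Before adjustment 2 members, Mdm2 and Phlda3, had a p under 0.05 (24.2% of all genes), and edgeR called 0 members and DESeq2 called 1, Phlda3. In liver 1 member of 9 rose, Trp53inp1, beside 5.91% of 12816 genes called in either direction, 2.79% higher and 3.12% lower. In testes 2 members of 9 rose, Sesn1 and Trp53inp1, beside 20.5% of 19329 genes, of which 9.74% were higher and 10.7% lower. The members' share was thus near that of all genes in testes. No member fell in any tissue.

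The median log2 difference of the 9 members was 0.01 for cerebellum, −0.04 for liver and 0.10 for testes, against −0.01, −0.00 and 0.00 for all genes tested. All 4 KO libraries lay above all 4 WT libraries for 0 members in cerebellum, 1 in liver (Trp53inp1) and 3 in testes (Bax, Sesn1 and Trp53inp1), while the share of all genes without overlap between genotypes, in either direction, was 13.8%, 12.7% and 28.6%. In testes the scaling moved the balance of all calls, from 1882 genes higher and 2075 lower to 3201 genes higher and 1534 lower when libraries were scaled to their totals alone. With neighbouring libraries summed, no member was called in any tissue, and the genes called in all fell to 47 in cerebellum, 11 in liver and 2 in testes. This fit compares 2 sums with 2 sums, so few genes can pass adjustment. In testes 4088 of 19425 genes had an unadjusted p under 0.05 in it. A call lost with summed libraries, here and below, therefore does not show that a difference is absent.

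**Figure D1:**
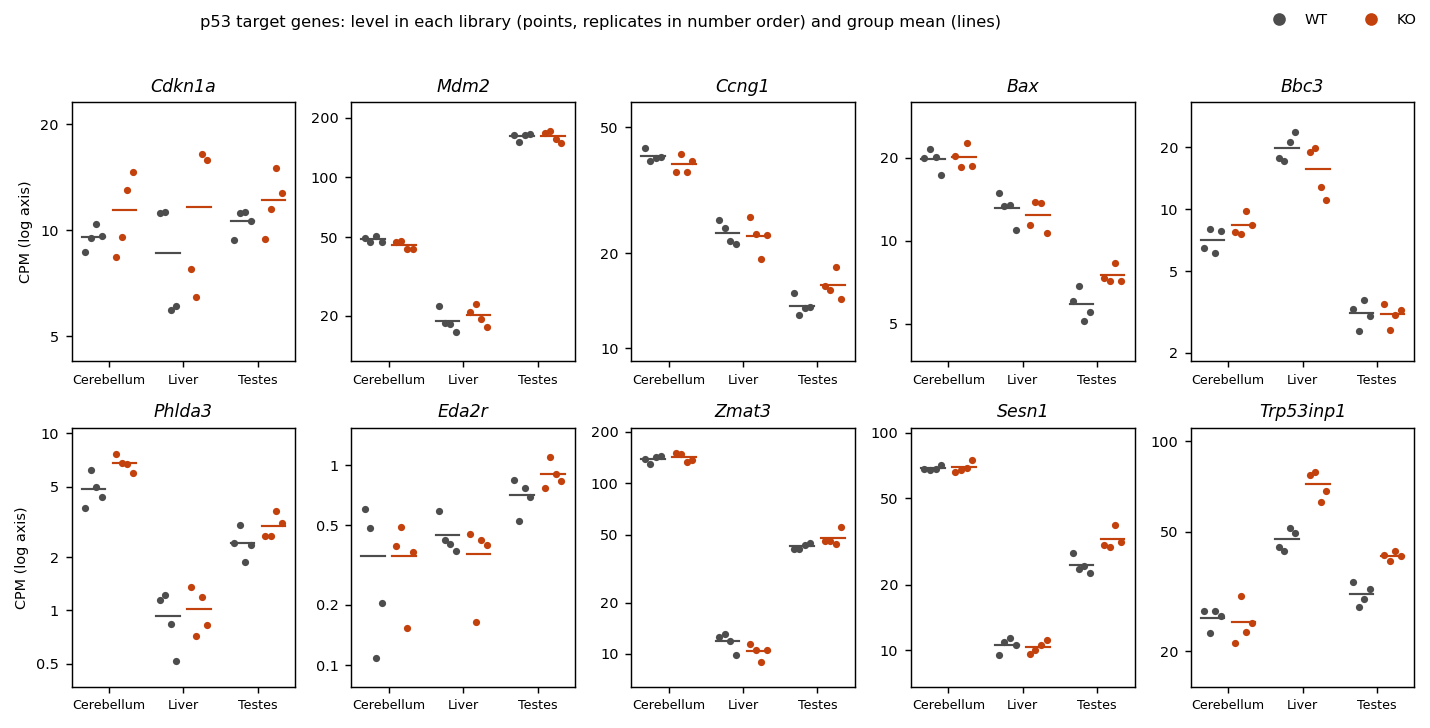
Level of each of the 10 p53 targets in every library, in CPM on a log axis, with WT libraries in grey, KO libraries in orange and a line at each group mean. Trp53inp1 separates the genotypes in liver (WT 43.1 to 51.3, KO 62.7 to 79.2 CPM) and in testes (WT 28.1 to 34, KO 40.0 to 43.0 CPM), and Cdkn1a in liver shows a wide spread in both genotypes.

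Trp53inp1 encodes a stress-induced nuclear protein that takes part in cell death and in autophagy (ENSMUSG00000028211.11, protein-coding, mm10 chr4:11156431-11174379, plus strand). In liver it stood at 44.6, 43.1, 51.3 and 49.4 CPM in WT 1 to 4 and at 77.4, 79.2, 62.7 and 68.5 CPM in KO 5 to 8. Every KO library was above every WT library, and KO 5 and 6 were the highest of the 8. The means were 47.1 ± 3.89 and 72.0 ± 7.76 CPM (SD, n = 4 each), a log2 difference of 0.64 (SE 0.118, adjusted p = 0.0116) and a fold of 1.56 with a 95% interval of 1.3 to 1.87. Leaving out any single library kept the call, with differences of 0.58 to 0.72. With neighbouring libraries summed the difference was 0.65 and its adjusted p was 0.284. As these are bulk tissues, fewer cells of a type and less RNA per cell cannot be told apart, here and in all results that follow.

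In testes Trp53inp1 stood at 34, 28.1, 29.9 and 32.1 CPM in WT and at 41.8, 40.0, 43.0 and 41.4 CPM in KO libraries. The genotypes did not overlap, and the 4 KO libraries lay within 3 CPM of each other. The means were 31.0 ± 2.58 and 41.5 ± 1.24 CPM (SD, n = 4 each), a log2 difference of 0.34 (SE 0.0656, adjusted p = 0.007), which is 1.27-fold with an interval of 1.15 to 1.4. The call held without any single library (0.29 to 0.37), and the adjusted p was 0.156 with neighbouring libraries summed. In cerebellum the same gene stood at 27.2, 23.0, 27.1 and 26.2 CPM in WT and at 21.3, 30.5, 23.1 and 24.8 CPM in KO libraries. The KO libraries fell on both sides of the WT libraries, with a log2 difference of −0.08 (95% interval −0.29 to 0.12, adjusted p = 0.642).

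Sesn1 encodes a sestrin, a stress-induced inhibitor of the growth kinase complex mTORC1 (ENSMUSG00000038332.13, protein-coding, chr10:41809935-41908424, plus strand). In testes it stood at 28.0, 23.5, 24.3 and 22.7 CPM in WT and at 30.4, 29.8, 37.8 and 31.4 CPM in KO libraries. All KO libraries were above all WT libraries, with KO 7 the highest and the highest WT library, WT 1, within 2 CPM of the lowest KO library. The log2 difference was 0.31 (SE 0.0823, adjusted p = 0.0235), a fold of 1.24 with an interval of 1.09 to 1.4. The call was lost without WT 2 (0.29, adjusted p = 0.0643), without WT 3 (0.31, adjusted p = 0.0668), without WT 4 (0.28, adjusted p = 0.0828) and with neighbouring libraries summed (0.31, adjusted p = 0.191).

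In cerebellum Sesn1 differed by 0.01 (adjusted p = 0.945) between means of 68.9 ± 1.65 and 69.4 ± 4.09 CPM, and in liver by −0.04 (adjusted p = 0.859). Zmat3, which encodes a zinc finger RNA-binding protein that acts on splicing (ENSMUSG00000027663.12, protein-coding, chr3:32334792-32366014, minus strand), passed the test in no tissue. Its log2 differences were 0.05 in cerebellum, −0.21 in liver and 0.07 in testes, with adjusted p of 0.592, 0.241 and 0.549. Liver Zmat3 was 9.82 to 13.1 CPM in WT and 9.0 to 11.5 CPM in KO libraries, which overlap.

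Cdkn1a, the cell cycle arm (ENSMUSG00000023067.14, protein-coding, chr17:29090976-29100727, plus strand), passed the test in no tissue. In liver it stood at 11.2, 11.3, 5.94 and 6.08 CPM in WT 1 to 4 and at 7.77, 6.45, 16.5 and 15.8 CPM in KO 5 to 8. Both genotypes split into a high and a low pair of neighbouring libraries, and the low KO pair lay inside the WT range. The log2 difference was 0.47 (95% interval −0.19 to 1.14, adjusted p = 0.38). KO 5 and 6 were also the shallowest liver libraries, with 19958739 and 18145725 counts, and their hepatocyte marker sums were 62200 and 63600 CPM against 83300 and 90200 CPM in KO 7 and 8. Of the WT libraries, WT 3 and 4, low in Cdkn1a, had 32143751 and 26992675 counts. WT 1 and 2, high in Cdkn1a, had 32251737 and 30886852. The hepatocyte sums were 67700 and 65800 CPM in WT 1 and 2 and 63000 and 51800 CPM in WT 3 and 4. The share of abundant noncoding RNAs was lower where Cdkn1a was high in both genotypes, at 17.5 and 19.0% in WT 1 and 2 and 18.8 and 17.5% in KO 7 and 8. It was 23.1 and 31.0% in WT 3 and 4 and 27.2 and 26.4% in KO 5 and 6. The part of noncoding RNA, depth and cell makeup in the Cdkn1a spread was not tested.

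In cerebellum Cdkn1a was 8.66, 9.54, 10.4 and 9.64 CPM in WT and 8.42, 9.6, 13.0 and 14.6 CPM in KO libraries. KO 7 and 8 were above every WT library and KO 5 was below them all, with a difference of 0.22 (−0.11 to 0.55, adjusted p = 0.401). In testes it was 9.41, 11.2, 11.3 and 10.6 CPM in WT and 9.44, 11.5, 15 and 12.8 CPM in KO libraries. The lowest libraries of both genotypes were nearly level, and the difference of 0.08 had an adjusted p of 0.662. A noncoding gene on the other strand overlaps 273 bases of the Cdkn1a exons, and whether counting used strand is not given in the sources used here, so its counts are uncertain to that extent.

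**Figure D2:**
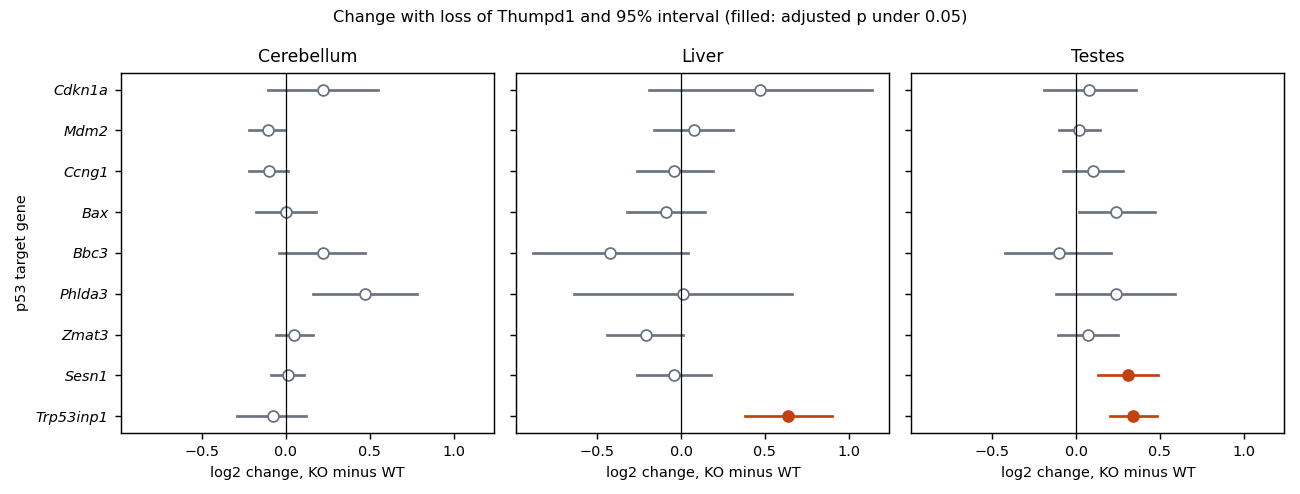
Log2 difference between KO and WT for the 9 members tested, with 95% intervals, in cerebellum, liver and testes; filled points passed an adjusted p of 0.05 in limma-voom. Trp53inp1 in liver (0.64) and testes (0.34) and Sesn1 in testes (0.31) are filled, and the other points are open, among them Cdkn1a in liver with an interval of −0.19 to 1.14.

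Neither feedback gene passed the test in any tissue. Mdm2, the ubiquitin ligase that degrades p53 (ENSMUSG00000020184.15, protein-coding, chr10:117688875-117710758, minus strand), had means of 161 ± 6.98 CPM in WT and 161 ± 9.82 CPM in KO testes, a log2 difference of 0.02 with an interval of −0.1 to 0.14. Its sign in testes was negative under other scalings, at −0.06 with edgeR and −0.07 with DESeq2. In cerebellum Mdm2 was 48.8 ± 1.75 CPM in WT and 45.5 ± 2.46 CPM in KO libraries, a difference of −0.11 (−0.22 to −0.01) whose unadjusted p was 0.0413 and adjusted p 0.185. In liver the difference was 0.08 (adjusted p = 0.714). Ccng1, which encodes the cyclin G1 that recruits a phosphatase to Mdm2 (ENSMUSG00000020326.7, protein-coding, chr11:40748552-40755311, minus strand), differed by −0.10 in cerebellum, −0.04 in liver and 0.10 in testes, with adjusted p of 0.261, 0.868 and 0.385.

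Of the cell death genes, Bax and Phlda3 came nearest to the threshold. Bax encodes the protein that opens the mitochondrial outer membrane (ENSMUSG00000003873.11, protein-coding, chr7:45461697-45466898, minus strand), and in testes it stood at 6.04, 6.86, 5.11 and 5.5 CPM in WT and at 7.32, 7.15, 8.3 and 7.16 CPM in KO libraries. The genotypes did not overlap, with WT 2 and KO 6 within 1 CPM. The log2 difference was 0.24 (SE 0.101, adjusted p = 0.104), a fold of 1.18 with an interval of 1.02 to 1.38. It passed with library quality weights (0.28, adjusted p = 0.0292) and with scaling to library totals (0.36, adjusted p = 0.0375). Such scaling raised the share of higher calls over all testes genes from 47.6% to 67.6%. With neighbouring libraries summed Bax was not called (0.24, adjusted p = 0.337). Bax differed by 0.00 in cerebellum and −0.09 in liver, and it shares 192 exon bases with a gene model on its own strand, which makes its counts uncertain to that extent.

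Phlda3 encodes a repressor of the survival kinase Akt (ENSMUSG00000041801.5, protein-coding, chr1:135766119-135769136, plus strand). In cerebellum it stood at 3.81, 6.23, 5.01 and 4.39 CPM in WT and at 7.69, 6.85, 6.74 and 6.0 CPM in KO libraries. WT 2 lay above KO 8, and the other 3 WT libraries lay below all KO libraries. The log2 difference was 0.47 (SE 0.143), a fold of 1.39 with an interval of 1.12 to 1.72, with an unadjusted p of 0.00593 and an adjusted p of 0.0697. It passed with DESeq2 (adjusted p = 0.0428), with quality weights (adjusted p = 0.0396) and without WT 2 (0.61, adjusted p = 0.0221). With neighbouring libraries summed it was not called (0.44, adjusted p = 0.163). In testes the difference was 0.24 (adjusted p = 0.307), and in liver, where Phlda3 had 13 to 45 counts a library, it was 0.01 (adjusted p = 0.991).

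Bbc3, which encodes the cell death trigger PUMA (ENSMUSG00000002083.13, protein-coding, chr7:16308393-16318205, plus strand), was 17.8, 17.1, 21.2 and 23.7 CPM in WT liver and 19.1, 19.9, 12.9 and 11.1 CPM in KO liver. KO 7 and 8 were below every WT library, whereas KO 5 and 6 lay within the WT range. The log2 difference was −0.42 (−0.88 to 0.04, adjusted p = 0.255). Bbc3 differed by 0.22 in cerebellum (adjusted p = 0.28) and by −0.10 in testes (adjusted p = 0.63). Eda2r, a receptor of the tumour necrosis factor family (ENSMUSG00000034457.10, protein-coding, chrX:97333840-97377216, minus strand), had 2 to 33 counts a library and a highest level of 1.1 CPM. When no filter was applied its log2 differences were 0.00, −0.44 and 0.23 in cerebellum, liver and testes, with adjusted p of 1.0, 0.655 and 0.623.

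Whether the response differed between tissues was tested directly as the difference of the KO effects. Trp53inp1 was the 1 member called, with an effect in cerebellum below that in liver by a log2 difference of −0.69 (SE 0.154, 95% interval −1.0 to −0.37, adjusted p = 0.0072), where 7.67% of 11112 genes were called and 3.77% were lower. This call held without any single library, at −0.78 to −0.62. With neighbouring libraries summed the difference was −0.68, its adjusted p was 0.194, and 10 genes were called in all. Scaling to library totals moved the balance of all calls in this comparison to 178 genes higher and 419 lower, from 50.8% higher to 29.8%. Bbc3 had a difference of 0.65 in the same comparison (0.1 to 1.21, adjusted p = 0.134).

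Between testes and liver 0 of 9 members were called by limma-voom, edgeR or DESeq2, beside 15.9% of genes, and 3 members had an unadjusted p under 0.05, beside 31.6% of genes. Trp53inp1 had a difference of −0.32 there (SE 0.136, adjusted p = 0.105), which passed without liver KO 7 (−0.40, adjusted p = 0.041). Sesn1 had 0.28 (adjusted p = 0.093) and passed without liver WT 1 (0.37, adjusted p = 0.031) or testes WT 1 (0.34, adjusted p = 0.0474). With totals the calls over all genes were 638 higher and 419 lower, 60.4% higher in place of 50.1%.

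Between testes and cerebellum 0 of 9 members were called by any of the 3 tools, beside 14.5% of genes, and 2 had an unadjusted p under 0.05, beside 30.2% of genes. Sesn1 missed narrowly, with 0.26 (0.08 to 0.45, adjusted p = 0.0507). It passed without cerebellum KO 8 (0.30, adjusted p = 0.036) and without testes WT 1 (0.32, 0.0194), KO 5 (0.28, 0.0442), KO 6 (0.29, 0.0403) or KO 8 (0.28, 0.0494). Trp53inp1 had 0.37 (0.04 to 0.69, adjusted p = 0.116) and passed without cerebellum KO 6 (0.46, adjusted p = 0.0488). With totals both genes were called, at 0.34 (adjusted p = 0.0459) for Sesn1 and 0.44 (adjusted p = 0.0308) for Trp53inp1, while the share of all calls that were higher rose from 49.0% to 79.8%.

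Markers of some cell types moved with genotype in the same libraries. Over all genes 9.74% were called higher and 10.7% lower in testes. These shares were 3.93% and 2.51% in cerebellum and 2.79% and 3.12% in liver. In testes 9 of 12 Sertoli cell markers tested were higher in the KO, with a summed level of 1170 to 1380 CPM in WT and 1500 to 2150 CPM in KO libraries. Markers of later germ cells were lower: 5 of 10 for round spermatids (1450 to 1500 against 1180 to 1400 CPM) and 4 of 10 for elongating spermatids (15300 to 16100 against 11600 to 14400 CPM). The summed macrophage markers were also lower in KO testes, without overlap (226 to 230 against 181 to 208 CPM), with 1 of 8 called lower and a median log2 difference of 0.15, and 2 of 7 Leydig cell markers were higher, with a list median of −0.17 and overlapping sums (1050 to 1140 against 952 to 1580 CPM). Of 9 spermatogonia markers tested 1 was higher, with a median of 0.25 and summed levels of 152 to 169 CPM in WT and of 165, 174, 245 and 217 CPM in KO 5 to 8. Among 10 spermatocyte markers 1 was lower, with a median of 0.07 and overlapping sums (1700 to 1890 against 1630 to 1930 CPM). KO 7 stood apart in several of these sums, at 2150 CPM for Sertoli cells against 1500 to 1640 CPM in the other KO libraries and at 1580 CPM for Leydig cells against 952 to 1020 CPM, and KO 7 and 8 were the lowest for round spermatids (1180 and 1200 CPM) and elongating spermatids (11600 and 12600 CPM). KO 7 was also the highest testes library for Trp53 and for 6 of the 9 tested members, Trp53inp1, Sesn1, Bax, Cdkn1a, Ccng1 and Phlda3. Without KO 7 the log2 differences in testes were 0.25 for Sesn1 (adjusted p = 0.0488), 0.34 for Trp53inp1 (adjusted p = 0.0143), 0.21 for Bax (adjusted p = 0.205) and −0.01 for Cdkn1a (adjusted p = 0.969), and 2545 genes were called in all. In cerebellum 4 of 8 granule cell markers were lower (4480 to 4530 against 3980 to 4250 CPM), and 6 of 10 midbrain and forebrain markers were higher (116 to 131 against 179 to 245 CPM). Of the Purkinje cell and oligodendrocyte markers, 2 of 8 each were higher there, with overlapping sums. Astrocyte markers had 1 of 8 higher, and 0 of 7 microglia and macrophage and 0 of 8 choroid plexus markers were called, all with overlapping sums. In liver 3 of 10 hepatocyte markers were called, 2 higher and 1 lower, with overlapping sums of 51800 to 67700 and 62200 to 90200 CPM. Liver macrophage markers had 0 of 9 called. Of 10 endothelial and stellate markers 1 was higher and 1 lower, and the sums of both lists overlapped. The part of cell makeup in the Trp53inp1, Sesn1, Bax and Phlda3 differences was not tested.

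The WT libraries give each member's level in each tissue, here per length as CPM per kilobase of exon. In cerebellum Sesn1 was the highest member at 17.3 ± 0.415 (SD, n = 4), followed by Bax at 12.5 ± 1.11, Zmat3 at 12.1 ± 0.603 and Ccng1 at 11.6 ± 0.46, whose ranges over the 4 libraries overlapped, and by Mdm2 at 9.6 ± 0.344. Trp53inp1 (3.99), Bbc3 (3.34), Phlda3 (3.12) and Cdkn1a (2.69) formed a lower group in which neighbours overlapped, and Eda2r was last at 0.0596.

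In liver Bbc3 (9.38 ± 1.46), Bax (8.35 ± 1.06), Trp53inp1 (7.27 ± 0.601) and Ccng1 (6.59 ± 0.535) led, and each overlapped the next. Mdm2 came below them at 3.72 ± 0.484 without overlap, Sesn1 (2.67) and Cdkn1a (2.43) overlapped each other, and Zmat3 (1.03), Phlda3 (0.599) and Eda2r (0.0757) followed without overlap. In testes Mdm2 stood apart at 31.7 ± 1.37, Sesn1 followed at 6.19 ± 0.585 and Trp53inp1 at 4.79 ± 0.399. Ccng1 (3.88), Zmat3 (3.74) and Bax (3.73) overlapped each other, Cdkn1a was at 2.99 ± 0.245, Phlda3 (1.55) and Bbc3 (1.46) overlapped, and Eda2r was again the lowest at 0.12.

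**Figure D3:**
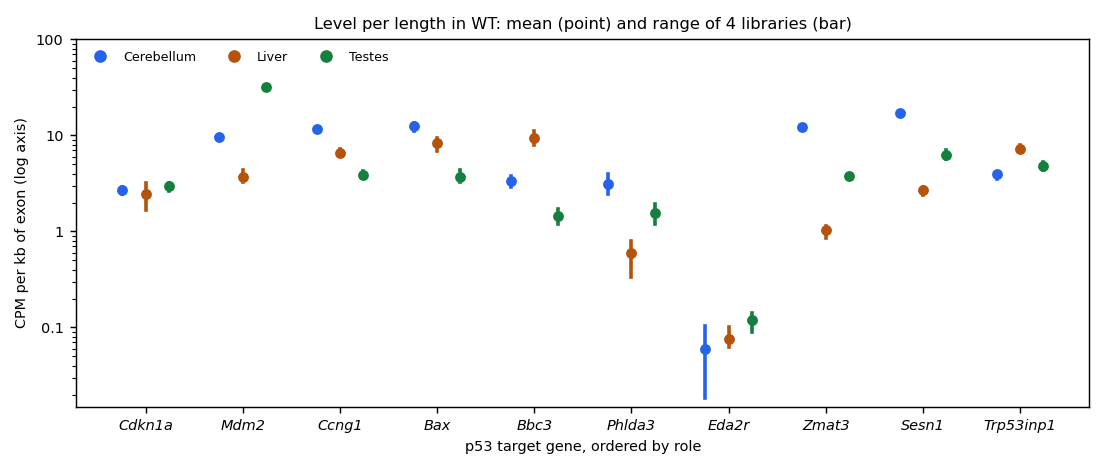
Mean level of each member in WT cerebellum, liver and testes, in CPM per kilobase of exon on a log axis, with the range over the 4 WT libraries. Mdm2 in testes (31.7) and Sesn1 in cerebellum (17.3) are the highest points, and Eda2r is the lowest member in every tissue (0.0596 to 0.12).

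Differences between WT tissues were wide over the genome, with 85.3% of 22678 genes called between cerebellum and liver, 89.7% between testes and liver and 89.3% between testes and cerebellum. Between the last 2 tissues 8 of 9 members were called, Mdm2 and Trp53inp1 higher in testes and 6 lower, where 50.7% of genes were higher and 38.5% lower. Mdm2 was higher in testes by a log2 difference of 1.98 (SE 0.0644, adjusted p = 2.43e-18), and Cdkn1a was the member not called (0.41, adjusted p = 0.171). Against liver, Mdm2 was higher in testes by 2.16 (SE 0.0716, adjusted p = 3.41e-18) and Bbc3 differed by −3.6 (SE 0.2, adjusted p = 6.12e-14). In that comparison too 8 of 9 members were called, 3 higher and 5 lower in testes, beside 55.8% of genes higher and 33.9% lower, with Phlda3 the exception (0.46, adjusted p = 0.0966). With neighbouring libraries summed the calls of Cdkn1a (−0.66, adjusted p = 0.139) and Sesn1 (0.20, adjusted p = 0.153) between testes and liver were lost. Phlda3 passed with DESeq2 (0.57, adjusted p = 0.00904) and with totals (1.4), as did Cdkn1a between testes and cerebellum with DESeq2 (0.49, adjusted p = 0.0396). Cdkn1a, lower in testes than in liver by a log2 difference of −0.59 (adjusted p = 0.0448), lost its call without liver WT 1 or WT 2 (both −0.45) and without testes WT 1 (−0.52), WT 2 (−0.61), WT 3 (−0.62), WT 4 (−0.6), KO 6 or KO 8 (both −0.59).

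All 9 members were called between cerebellum and liver, 4 higher and 5 lower in cerebellum, beside 42.5% of genes higher and 42.9% lower. Zmat3 was higher in cerebellum by 2.35 (SE 0.084), Sesn1 by 1.51 (SE 0.0883) and Phlda3 by 1.21 (SE 0.248), whereas Bbc3 differed by −2.66 (SE 0.173) and Trp53inp1 by −2.06 (SE 0.0887). The smallest of these differences, 0.18 for Mdm2 (adjusted p = 0.0459), lost its call without liver WT 2 or 3 (both 0.16), WT 4 (0.13), KO 5 or KO 7 (both 0.17) and without cerebellum WT 1 (0.17), WT 2 (0.19) or WT 3 (0.16), and with neighbouring libraries summed (0.13, adjusted p = 0.282). Scaling to library totals moved the median gene between cerebellum and liver from −0.04 to 1.16, between testes and liver from 0.87 to 1.81 and between testes and cerebellum from 0.40 to 0.15. The signs of Cdkn1a (−1.0 to 0.20), Ccng1 (−0.38 to 0.81) and Bax (−0.60 to 0.59) between cerebellum and liver, and of Cdkn1a between testes and liver (−0.59 to 0.35), turned with it. Members called in the same direction under both scalings numbered 6 between cerebellum and liver, 8 between testes and cerebellum and 7 between testes and liver.

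Relative to the median gene, cerebellum exceeded liver by 2.39 for Zmat3, 1.54 for Sesn1, 1.25 for Phlda3 and 0.21 for Mdm2. Such values lie within 0.01 of each other under both scalings because the subtraction removes a shift shared by all genes. On the same relative scale Bbc3 stood at −2.62, Trp53inp1 at −2.02, Cdkn1a at −0.96, Bax at −0.57 and Ccng1 at −0.34. Testes against cerebellum gave 1.58 for Mdm2, 0.12 for Trp53inp1 and 0.01 for Cdkn1a. The other members were lower there, with Phlda3 at −1.15, Bbc3 at −1.34, Sesn1 at −1.63, Ccng1 at −1.72, Zmat3 at −1.84 and Bax at −1.9. Testes against liver gave 1.28 for Mdm2 and 0.05 for Zmat3, and the lower values were −0.41 for Phlda3, −0.59 for Sesn1, −1.46 for Cdkn1a, −2.41 for Trp53inp1, −2.57 for Ccng1, −2.97 for Bax and −4.47 for Bbc3. Sesn1, which was called higher in testes than in liver by 0.28, and Phlda3 (0.46, not called) thus lay on the other side of 0 relative to the median gene. The median gene itself depends on which genes pass the filter on low values. With totals the share of higher calls over all genes was 78.0% in place of 49.8% between cerebellum and liver and 75.2% in place of 62.2% between testes and liver.

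Within groups the members showed no common direction. Across the 36 pairs of the 9 tested members, the correlation of log2 deviations from the own group mean over 24 libraries had a median of 0.093 and ran from −0.62, for Bbc3 and Cdkn1a, to 0.549, for Bax and Phlda3. In the 8 liver libraries the deviations of Cdkn1a ran opposite to those of Trp53inp1 (r = −0.962) and of Bbc3 (r = −0.947), so the libraries high in Cdkn1a (WT 1 and 2, KO 7 and 8) were the lower libraries of their genotype for the others. This opposition was in liver: over the 8 libraries of cerebellum and of testes the correlation of Cdkn1a was −0.001 and −0.194 with Trp53inp1 and 0.421 and −0.216 with Bbc3. These values describe deviations that share a library, its depth and its cell makeup, and their neighbouring libraries are not shown to be independent. Of the 11112 genes ranked by likeness to Cdkn1a over the 24 libraries, the leading 5 were Rnf144b (r = 0.92), Chka (0.909), Tedc2 (0.909), Chd9 (0.908) and Tfip11 (0.904). None of these 5 genes is a member, and a link between them and p53 was not tested. Their correlations were 0.967 to 0.984 over the 8 liver libraries, 0.418 (Tfip11) to 0.862 (Chka) over those of cerebellum and 0.363 (Chka) to 0.988 (Tfip11) over those of testes.

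**Figure D4:**
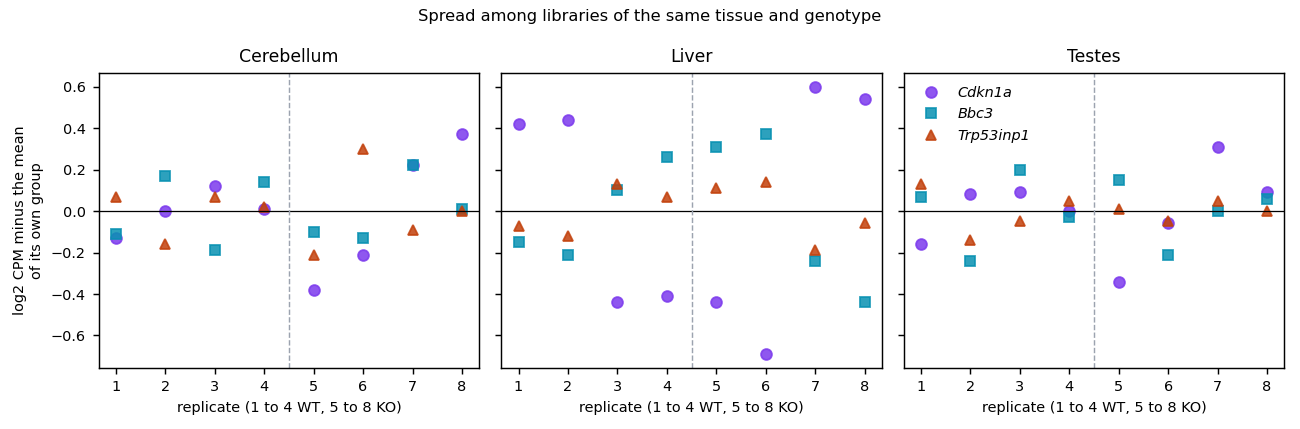
Deviation of log2 CPM from the own group mean for Cdkn1a, Bbc3 and Trp53inp1, by replicate number in each tissue, with a dashed line between WT 1 to 4 and KO 5 to 8. In liver, Cdkn1a lies above its group mean in WT 1 and 2 and KO 7 and 8, where Bbc3 and Trp53inp1 lie below theirs.

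Genes upstream of the members were examined as a list of 20 p53 regulators. This list and the lists that follow were chosen with earlier results of these data known. Their shares called therefore cannot test for an excess over all genes. The shares called, 5.26% in cerebellum, 6.25% in liver and 21.1% in testes, were near those of all genes (6.44%, 5.91% and 20.5%). In cerebellum 1 of 19 tested was called, Ppm1d, a phosphatase that turns the p53 response off (−0.18, adjusted p = 0.0446), and in liver 1 of 16, Rpl5, a ribosomal protein that binds Mdm2 (0.46, adjusted p = 0.0375). In testes 3 of 19 were higher and 1 lower. Trp53 itself, which encodes p53, stood at 19.0, 17.9, 17.8 and 15.2 CPM in WT and at 20.5, 21.9, 27.6 and 26.9 CPM in KO testes, without overlap and with KO 7 and 8 the highest. Its log2 difference was 0.37 (adjusted p = 0.0241), and the call was lost without WT 2 (0.38, adjusted p = 0.0512), WT 3 (0.38, 0.059), WT 4 (0.31, 0.0837), KO 7 (0.32, 0.0601) or KO 8 (0.31, 0.0536). Atm, the kinase that signals DNA breaks to p53, rose by 0.29 (adjusted p = 0.0236) and Mdm4, the partner of Mdm2, by 0.23, while Ppm1d fell by 0.15 (adjusted p = 0.0411). Mdm4 was at 0.13 with edgeR and DESeq2, which did not call it, and lost its call without WT 3 or WT 4 (both 0.22). Atm lost its call without WT 2 (0.3), WT 3 or WT 4 (both 0.29), and Ppm1d in testes without WT 2, 3 or 4 or KO 6, 7 or 8 (−0.16 to −0.13). The calls of Ppm1d in cerebellum (−0.19 to −0.15 without WT 1, 3 or 4 or KO 5, 7 or 8) and of Rpl5 in liver (0.39 to 0.46 without WT 1, 2 or 3 or KO 5 or 6) also rested on single libraries. No regulator was called in any tissue with neighbouring libraries summed. The median of the list was −0.04 for cerebellum, 0.04 for liver and 0.06 for testes.

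A list of 42 other p53 targets, also chosen with earlier results known, was examined next. Within each tissue most of those tested were not called, and shares above that of all genes can come from the choice of the list. In cerebellum 5 of 33 rose and 1 fell (18.2% called, beside 6.44% of all genes), with a list median of 0.05. Trp53i11, a p53-induced gene, was 49.2 to 55.5 CPM in WT and 66.6 to 84.1 CPM in KO libraries and rose by 0.54 on the log2 scale. Sesn2, the sister gene of Sesn1, rose by 0.49, from 8.36 to 10.3 CPM in WT to 12.0 to 14.3 CPM in the KO. The other calls were Plk2 (0.25), Zfp365 (0.23) and Btg2 (0.25), which are a kinase, a genome stability factor and an antiproliferative gene, and Zmat1 (−0.29). Trp53i11 and Sesn2 passed whichever library was left out. Plk2 lost its call without WT 4 (0.23) or KO 5 (0.24), Zfp365 without WT 1 (0.23), WT 4 (0.21) or KO 5 (0.22), Btg2 without WT 1, 3 or 4 or KO 5, 7 or 8 (0.22 to 0.28), and Zmat1 without any library other than KO 6 (−0.32 to −0.24). Zmat1 was also not called by edgeR (−0.27, adjusted p = 0.062). With neighbouring libraries summed, 1 of these calls was made, Trp53i11.

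In liver 2 of 33 other targets rose and 7 fell (27.3% called, beside 5.91% of all genes). The list median was −0.10, against −0.05 with edgeR and −0.03 with DESeq2. Igfbp3, which encodes a binding protein of insulin-like growth factors, was 15.4 to 20.1 CPM in WT and 9.15 to 10.5 CPM in KO libraries and fell by 0.77 on the log2 scale. Tigar, a phosphatase that diverts glucose from glycolysis, fell by 0.62, and Steap3, an iron reductase, fell by 0.43. Aen (−0.50), Ephx1 (−0.48), Dglucy (−0.34) and Perp (−0.26) were the other lower genes, and Ephx1 libraries overlapped at 382 to 567 CPM in WT and 295 to 390 CPM in the KO. Zmat1 (0.75) and Rps27l (0.35) rose. Igfbp3, Steap3, Ephx1 and Dglucy passed whichever library was left out, and Tigar lost its call without WT 1 (−0.57) or WT 2 (−0.58). Perp, Aen, Zmat1 and Rps27l each lost theirs without any of 5 or more of the 8 libraries, with values of −0.26 to −0.23, −0.53 to −0.43, 0.58 to 0.79 and 0.3 to 0.36 there. Across the libraries left out in turn the calls numbered 4 (without WT 1) to 10 (without WT 4), with scaling to totals 4, and with neighbouring libraries summed 0.

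In testes 5 of 37 other targets rose and 3 fell (21.6% called, near the 20.5% of all genes), with a list median of 0.08. With edgeR 8 rose and 3 fell, with a median of 0.15, beside 4442 of 19329 genes called. With DESeq2 9 rose and 3 fell, with a median of 0.14, beside 5039 genes called. In limma-voom Igfbp3 rose by 0.72, from 2.48 to 3.23 CPM in WT to 4.44 to 7.18 CPM in the KO. Tigar rose there by 0.23, from 18.7 to 20.6 CPM to 22.8 to 26.3 CPM. Zmat1 (0.49), Pmaip1, which encodes the cell death protein NOXA (0.43), and Ddb2, a sensor of ultraviolet damage (0.36), were the other higher genes. The lower genes were Tnfrsf10b, a death receptor (−0.43), Polk, a DNA polymerase that copies past damage (−0.33), and Trp53i11 (−0.26), the last of which was higher in KO cerebellum. Igfbp3 and Zmat1 passed whichever library was left out. Polk lost its call without WT 3 or 4 (both −0.32), Tnfrsf10b without WT 3 (−0.37), WT 4 (−0.39) or KO 7 (−0.41), and Ddb2 without WT 2 (0.34), WT 3 (0.39), WT 4 (0.36) or KO 7 (0.3). Pmaip1, Tigar and Trp53i11 each lost theirs without any of 5 or more libraries, with values of 0.34 to 0.46, 0.21 to 0.26 and −0.28 to −0.21 there. The calls numbered 2 (without WT 3) to 10 (without KO 5) across the libraries left out in turn, and 0 with neighbouring libraries summed. Rpl5, Ephx1, Tigar, Dglucy, Ddb2, Top2a, Cdc25c and Cdc20 share exon bases with another gene, so their counts are uncertain to that extent.

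The difference of effects between cerebellum and liver, tested in the same way as for the members, was called for 6 of 30 other targets (20%, beside 7.67% of all genes). It was 1.0 for Igfbp3 (adjusted p = 0.00043), 0.8 for Sesn2 (adjusted p = 0.027), 0.78 for Tigar (adjusted p = 0.000833), 0.74 for Trp53i11 (adjusted p = 0.00161) and 0.69 for Aen (adjusted p = 0.00206), all higher in cerebellum than in liver. Zmat1 had −1.12 (adjusted p = 0.000637), in the same direction as Trp53inp1. Sesn2 lost this call without cerebellum WT 1 (0.77), WT 4 (0.76), KO 5 (0.77) or KO 7 (0.79). Between testes and liver 5 of 30 other targets were called (16.7%, near the 15.9% of all genes): Igfbp3 (1.46, adjusted p = 2.13e-05), Tigar (0.78, adjusted p = 0.000281), Ephx1 (0.57, adjusted p = 0.0134) and Aen (0.54, adjusted p = 0.00475) higher in testes, and Rps27l (−0.43, adjusted p = 0.0295) lower. Rps27l lost its call with edgeR (−0.43, adjusted p = 0.0508) and without liver WT 2 (−0.41), KO 5 (−0.39) or KO 6 (−0.4) or testes WT 4 (−0.41), KO 7 (−0.38) or KO 8 (−0.33). Between testes and cerebellum 4 of 30 were called (13.3%, near the 14.5% of all genes), among them Trp53i11 (−0.86, adjusted p = 2.32e-05), Zmat1 (0.75, adjusted p = 0.00111) and Polk (−0.41, adjusted p = 0.021), the last of which lost its call without cerebellum KO 8 (−0.36). With neighbouring libraries summed, 1 of these calls over the 3 comparisons was made, Igfbp3 between testes and liver (1.49, adjusted p = 0.0239).

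Of 18 cell cycle genes that p53 and p21 are known to hold down, few were expressed outside testes. In cerebellum 1 of 6 tested was called, Mcm5, a subunit of the replication helicase (−0.33), which edgeR and DESeq2 did not call. In liver 0 of 7 were called by limma-voom, edgeR or DESeq2, 3 had an unadjusted p under 0.05 in limma-voom (42.9%, beside 23.3% of all genes) and 0 with edgeR or DESeq2, and the median was −0.36. In testes 4 of 18 were called (22.2%, near the 20.5% of all genes), Mki67 (0.24) and Top2a (0.19) higher and Cdc25c (−0.32) and Cdc20 (−0.18) lower, with a median of −0.05. Top2a stood at 0.09 with edgeR and DESeq2, which did not call it. Leaving out WT 3 or WT 4 removed each of these calls, and other libraries did so for Top2a (WT 2), Cdc25c (WT 1 and KO 7) and Cdc20 (WT 2, KO 5 and KO 6). The values there were 0.24 for Mki67, 0.17 to 0.19 for Top2a, −0.34 to −0.25 for Cdc25c and −0.18 to −0.16 for Cdc20. The Mcm5 call in cerebellum was lost without any library other than KO 8 (−0.33 to −0.29). No gene of this list was called in any tissue with neighbouring libraries summed, where the adjusted p was 0.214 for Mki67, 0.188 for Top2a, 0.211 for Cdc25c and 0.234 for Cdc20 in testes and 0.221 for Mcm5 in cerebellum.

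**Figure D5:**
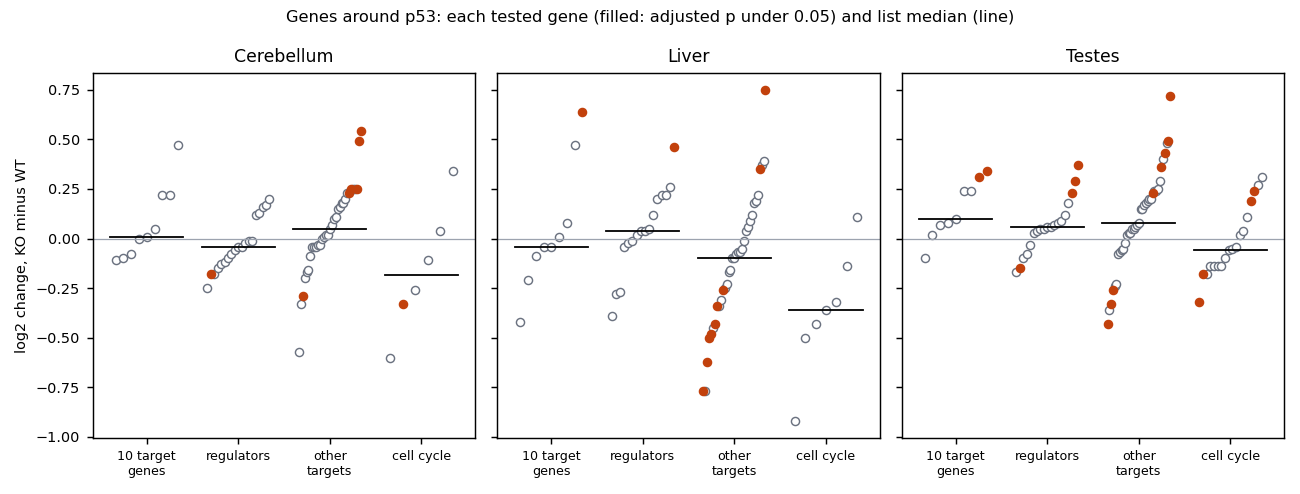
Log2 difference between KO and WT for every tested gene of 4 lists (members, regulators of p53, other p53 targets and cell cycle genes) in each tissue, with filled points for an adjusted p under 0.05 and a line at the list median. In limma-voom the other targets have medians of 0.05 (cerebellum), −0.10 (liver) and 0.08 (testes), and filled points lie on both sides of 0 in every tissue.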

How the data were processed

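Total RNA depleted of ribosomal RNA was sequenced in pairs with a stranded kit. The authors aligned reads to mm10 with STAR and deposited RSEM expected counts per gene of GENCODE M21, in 1 table of 24 columns. The expected counts entered limma as deposited and were rounded to whole numbers for edgeR and DESeq2. KO and WT were compared per tissue with limma 3.58.1 (voom, quantile normalization) on genes with at least 1 CPM in at least 4 libraries, with Benjamini-Hochberg adjustment over all genes tested and a two-sided threshold of 0.05. Differences between tissues used voom with TMM factors over all 24 libraries. Alternatives were edgeR 4.0.16, DESeq2 1.42.0, other filters and scalings, library quality weights, a replicate block, leaving out each library and summing neighbouring libraries. The fits were tested on simulated data. The members and lists were chosen with earlier results of these data known. The rule named the members, Thumpd1, Trp53, Mdm4, up to 5 called regulators and other targets and up to 3 called cell cycle genes per tissue by adjusted p, and the 5 genes most like Cdkn1a. Other genes of the lists were named after their values were seen. Tool versions upstream and the strand setting of the counting are not given in the sources used here.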

Additional observations from a re-analysis of the deposited data

Results flagged for a closer look

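In 60 groups of 4 libraries (10 members, 3 tissues, both genotypes), 3 members had a library that stood apart by Dixon's test, whose 95% limit lets through about 1 in 20 groups by chance. Mdm2 in WT testes was lowest in replicate 2, at 151 CPM against 164 to 166 CPM in the others. Bax in KO testes was highest in replicate 7, at 8.3 CPM against 7.15 to 7.32 CPM, and Sesn1 in WT cerebellum was highest in replicate 4, at 71.3 CPM against 67.7 to 68.2 CPM. The effect of the KO on Trp53inp1 differed between cerebellum and liver, by a log2 difference of −0.69 in the test of the difference itself (adjusted p = 0.0072).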

How the results depend on the processing

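Scaling to library totals and summing of neighbouring libraries were alternatives chosen after seeing the data. The direction of Trp53inp1 in liver and testes and of Sesn1 in testes held under every alternative run, and their calls were lost as given above; the cause was not tested. In cerebellum the genes called numbered 628 without a filter, 1757 with quality weights and 47 with neighbouring libraries summed. Members called there were 1 with DESeq2 and 1 with quality weights, other targets 1 with summed libraries, and regulators 0 with no filter, with a weaker filter, with totals and with summed libraries. In liver the genes called numbered 1408 with DESeq2, 492 without a filter, 1705 with quality weights, 447 with totals and 11 with summed libraries. Liver members were 0 with summed libraries, other targets 4 with totals and 0 with summed libraries, and regulators 2 with DESeq2, 0 without a filter, 5 with quality weights and 0 with summed libraries. In testes the genes called numbered 6107 with quality weights and 2 with summed libraries, where members, other targets and regulators were 0, and other targets numbered 5 without a filter. The differences of effects between cerebellum and liver gave 1441 genes with DESeq2 and 341 without a filter, those between testes and liver 965 without a filter and 1057 with totals, and those between testes and cerebellum 1021 genes and 2 members with totals. With summed libraries these differences gave 10, 52 and 5 genes and 0 members. Between WT testes and liver 31089 genes were called without a filter.

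Signs turned for values near 0. In liver these were Mdm2 (−0.01), Phlda3 (−0.24), Sesn1 (0.04) and Trp53 (0.09) with quality weights, and Phlda3 (−0.01) and Trp53 (0.00) without abundant noncoding RNAs. In testes they were Cdkn1a with quality weights (−0.06) and Mdm2 with edgeR (−0.06), DESeq2 (−0.07), TMM (−0.06) and totals (−0.00). With totals the difference between testes and cerebellum turned for Mdm2 (0.05) and Zmat3 (0.06), and the WT levels for Cdkn1a (0.20), Ccng1 (0.81) and Bax (0.59) between cerebellum and liver and Cdkn1a (0.35) between testes and liver.

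Leaving out 1 library gave 417 to 2317 genes, 0 to 1 members, 3 to 7 other targets and 0 to 3 regulators called in cerebellum. In liver it gave 284 to 795 genes, 4 to 10 other targets and 0 to 2 regulators, and in testes 1711 to 4913 genes, 1 to 2 members, 2 to 10 other targets and 0 to 4 regulators. For the differences of effects it gave 558 to 1223 genes between cerebellum and liver, 1220 to 2348 genes and 0 to 1 members between testes and liver, and 1079 to 1901 genes and 0 to 1 members between testes and cerebellum. Ranges that crossed 0 were Bax (−0.07 to 0.04) and Sesn1 (−0.03 to 0.03) in cerebellum, Ccng1 (−0.12 to 0.07), Phlda3 (−0.19 to 0.23), Sesn1 (−0.12 to 0.00) and Trp53 (−0.10 to 0.12) in liver, and Cdkn1a (−0.01 to 0.19), Mdm2 (−0.01 to 0.05) and Zmat3 (−0.00 to 0.13) in testes. Among the differences of effects they were Ccng1 (−0.16 to 0.02) and Sesn1 (−0.03 to 0.10) between cerebellum and liver, Phlda3 (−0.09 to 0.24) between testes and liver, and Mdm2 (−0.07 to 0.02) and Zmat3 (−0.08 to 0.06) between testes and cerebellum.

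Same-numbered libraries did not deviate together in every pair of tissues (correlations −0.205 to 0.204), so the data do not show that the numbers pair the samples, and whether they mark the same animals is not given in the sources used here. With that number as a replicate block, 1235, 2200 and 1234 genes were called for the differences between cerebellum and liver, testes and liver, and testes and cerebellum, and 2 members between testes and liver, Mdm2 (−0.23, adjusted p = 0.0496) and Trp53inp1 (−0.32, adjusted p = 0.0449). Eda2r had at most 33 counts a library.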
